A study of Mus musculus with 40 samples.

Results

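Adenylyl cyclases are the enzymes that make cyclic AMP (cAMP) from ATP. In brown adipocytes, noradrenaline binds beta-adrenergic receptors, the stimulatory G protein Gs activates membrane-bound cyclases, and the cAMP produced activates protein kinase A (PKA), which drives lipolysis and heat production. The isoforms differ in what regulates them: Adcy1 and Adcy8 are stimulated by calcium and calmodulin, Adcy5 and Adcy6 are inhibited by calcium, Adcy2, Adcy4 and Adcy7 respond to G protein beta-gamma subunits, Adcy9 is largely insensitive to forskolin, and Adcy10 is a soluble enzyme that responds to bicarbonate. Adcy3 is the member best known in brown fat, where a truncated form made from an internal promoter has been described after cold exposure.

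The 10 genes Adcy1 to Adcy10 were taken from the 21951 protein-coding genes of the GENCODE M21 annotation of the mouse genome (GRCm38), whatever their values. For each of them, all peaks that overlapped the gene body or the 20 kb upstream of its first start site were collected from 32 peak lists. These lists came from chromatin immunoprecipitation with sequencing (ChIP-seq) of brown adipose tissue. H3K4me3 marks active and poised promoters, H3K27ac active promoters and enhancers, H3K4me1 enhancers, and H3K27me3 chromatin silenced by Polycomb. All animals were wild type C57BL/6N mice aged 20 weeks, and the 4 marks were measured in each of 8 mice. Mice 1 and 2 were kept warm on a normal chow diet (NCD) and mice 4 and 5 spent 24 h at 4 °C on NCD. Mice 7 and 8 were kept warm after 12 weeks of a high-fat diet (HFD), started at 8 weeks of age, and mice 10 and 11 spent 24 h at 4 °C after the same HFD. Each condition thus had 2 mice, and temperature and diet were each compared between 4 and 4 mice. No batch is given in the labels, so differences in how the libraries of the diet groups were made cannot be told apart from diet.

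The lists differed widely in length, from 13517 to 24104 peaks for H3K4me3, 3224 to 40604 for H3K27ac, 12 to 27568 for H3K4me1 and 20 to 6428 for H3K27me3. Mouse 7 had the shortest list for 3 of the marks, and mice 7 and 10 had 12 and 18 H3K4me1 peaks. Over regions shared by all mice, the unnormalised H3K4me3 fold enrichment was lower in HFD than in NCD mice by a median of 2.79-fold. As a check of the tissue, all 8 brown adipocyte markers, Ucp1 and Cidea among them, carried H3K4me3 at a start site in 8 mice, and 7 of the 8 also carried H3K27ac in 8 mice. All 4 endothelial markers had H3K4me3 in at least 4 mice. None of the 4 macrophage, 4 neuronal or 3 liver markers did, and 1 of the 5 skeletal muscle markers did (Acta1, in the 4 NCD mice only). Since the tissue was measured in bulk, fewer cells of a type and less signal per cell cannot be told apart.

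The family fell into members with both active marks at a start site, members with H3K4me3 alone, and 1 member with H3K27ac alone. A peak was counted at a start site when it overlapped the 1000 bp on either side of a start of the GENCODE basic set by at least 1 bp. H3K4me3 was present in 8 mice at Adcy3, Adcy6 and Adcy9, in 7 mice at Adcy4 and Adcy8, in 6 at Adcy5 and Adcy7, in 5 at Adcy2, in 1 at Adcy1 and in none at Adcy10. Thus 8 of the 10 members had H3K4me3 at a start in at least 4 mice, beside 60.6% of all 21951 protein-coding genes. H3K27ac was present in 8 mice at Adcy10, in 7 at Adcy6, in 6 at Adcy4, in 5 at Adcy3, Adcy7 and Adcy9, and in none at Adcy1, Adcy2, Adcy5 and Adcy8. This made 6 of 10 members with H3K27ac in at least 4 mice, beside 39.9% of all genes. Mouse 7, with the shortest list, lacked H3K4me3 at all of the starts that had it in 5, 6 or 7 mice. H3K4me1 reached a start of Adcy6 in 4 mice and of Adcy9 and Adcy10 in 3 each, and H3K27me3 reached a start of Adcy4 and Adcy5 in mouse 5 alone, the mouse with the longest H3K27me3 list.

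**Figure D1:**
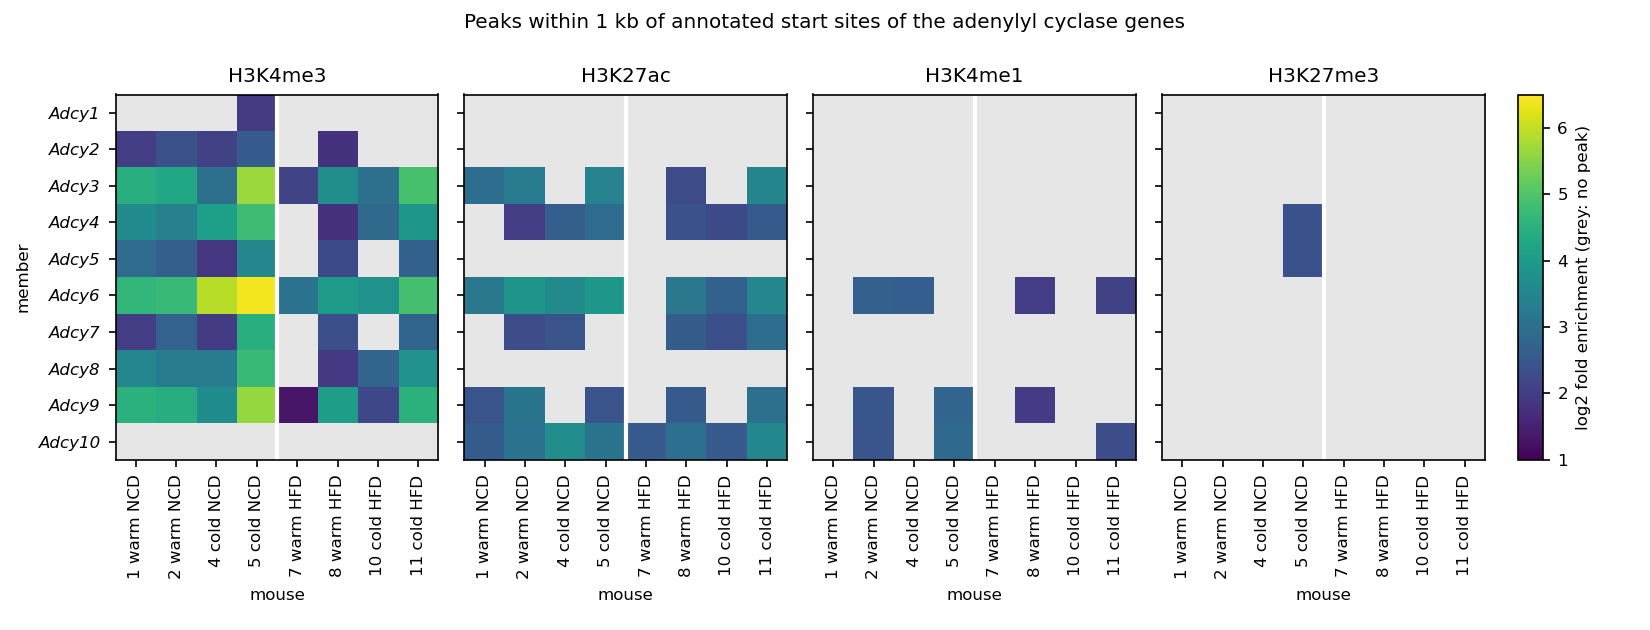
Peaks within 1 kb of an annotated start site for the 10 members (rows) in the 8 mice (columns), with 1 panel per mark. Colour gives the log2 of the highest fold enrichment of an overlapping peak and grey means no peak. H3K4me3 fills all 8 columns for Adcy3, Adcy6 and Adcy9, whereas Adcy10 is filled in the H3K27ac panel only, apart from 3 mice with H3K4me1.

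Adcy6, a calcium-inhibited isoform, had the most complete active promoter of the family. The gene lies at chr15:98589973-98610076 on the minus strand. Its H3K4me3 region ran from 229 bp upstream of the first start site to 4816 bp downstream and covered the start base of the coding transcript Adcy6-201 in 8 of 8 mice. The highest fold enrichment there was 25 and 26.2 in the warm NCD mice, 60.4 and 84.2 in the cold NCD mice, 8.55 and 16.4 in the warm HFD mice, and 13.9 and 29.2 in the cold HFD mice. The cold mice were higher than the warm mice on NCD, whereas on HFD the pairs overlapped. After quantile normalisation the cold minus warm difference was 0.28 ± 0.35 (log2, SE, n = 4 and 4) and did not pass (limma, adjusted p = 0.948). A second H3K4me3 region lay at 6231 to 8447 bp, starting 886 bp downstream of the start of the coding transcript Adcy6-205. It was called in 7 mice, with folds of 10.1, 7.79, 16.3 and 12.1 in mice 1, 2, 4 and 5 and 4.41, 4.05 and 9.2 in mice 7, 8 and 11, and was not called in mouse 10. No H3K4me3 peak covered the start base of Adcy6-205 itself in any mouse. H3K27ac accompanied the first region in 8 mice and the second in 6.

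Adcy9 (chr16:4287529-4420498, minus strand) carried H3K4me3 within 1000 bp of its 3 annotated starts in 8 mice, with folds of 22.8, 21.6, 12.8 and 49.7 in NCD mice and 2.5, 16.8, 4.59 and 23 in HFD mice. The 2.5 of mouse 7 was the lowest at any start of the family. H3K27ac was called at the starts in 5 mice and not in mice 4, 7 and 10. Inside Adcy9, a gene of 132970 bp, 12 intragenic H3K27ac regions were found, 5 of them in at least 4 mice. Adcy6, of 20104 bp, had 1 such region. Adcy3 also had 12, 4 of them in at least 4 mice, and Adcy10 had 8, so this was not particular to Adcy9. The most frequent in Adcy9 lay 48305 to 51345 bp from the first start and was called in 8 mice. Its folds were 5.09, 9.01, 6.53 and 7.4 in NCD mice and 5.05, 12, 5.09 and 9.87 in HFD mice. Its HFD minus NCD difference was 0.43 ± 0.25 (log2, SE, n = 4 and 4) after normalisation (limma, adjusted p = 0.563). H3K4me1 was called inside the same stretch in 5 mice, at 49113 to 50011 bp.

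Adcy10, the soluble isoform, showed the reverse arrangement. The gene lies at chr1:165485183-165576774 on the plus strand, and a H3K27ac region from 2785 bp upstream to 700 bp downstream of its start was called in 8 of 8 mice. Its folds were 6.03, 8.58, 13 and 8.72 in mice 1, 2, 4 and 5 and 6.01, 7.99, 5.95 and 11.9 in mice 7, 8, 10 and 11, so that the diet groups overlapped, as did the temperature groups. Only 3.74% of all protein-coding genes had H3K27ac at a start in 8 mice, and Adcy10 was the only member among them. No H3K4me3 peak lay within 1000 bp of a basic Adcy10 start in any mouse. At the far end of the 20 kb upstream window, H3K4me3 was listed in mice 1, 8 and 11 at the edge of a region over the start sites of Mpc2, a subunit of the mitochondrial pyruvate carrier, and Dcaf6. Smaller H3K4me3 peaks were listed upstream in mouse 8 alone, near Gm37860, and inside the gene in mouse 2 alone, at 24764 to 25091 bp with a fold of 3.29, which is 36 bp from the start of Adcy10-210, a transcript outside the basic set. Within Adcy10, H3K27ac was also called in 8 mice at 24428 to 26267 bp and in 6 mice at 17878 to 19570 bp. The basic annotation places no start at either site, while the comprehensive set starts Adcy10-207 and Adcy10-210 there, and their start bases each lay under H3K27ac in 5 mice and under H3K4me3 in none.

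**Figure D2:**
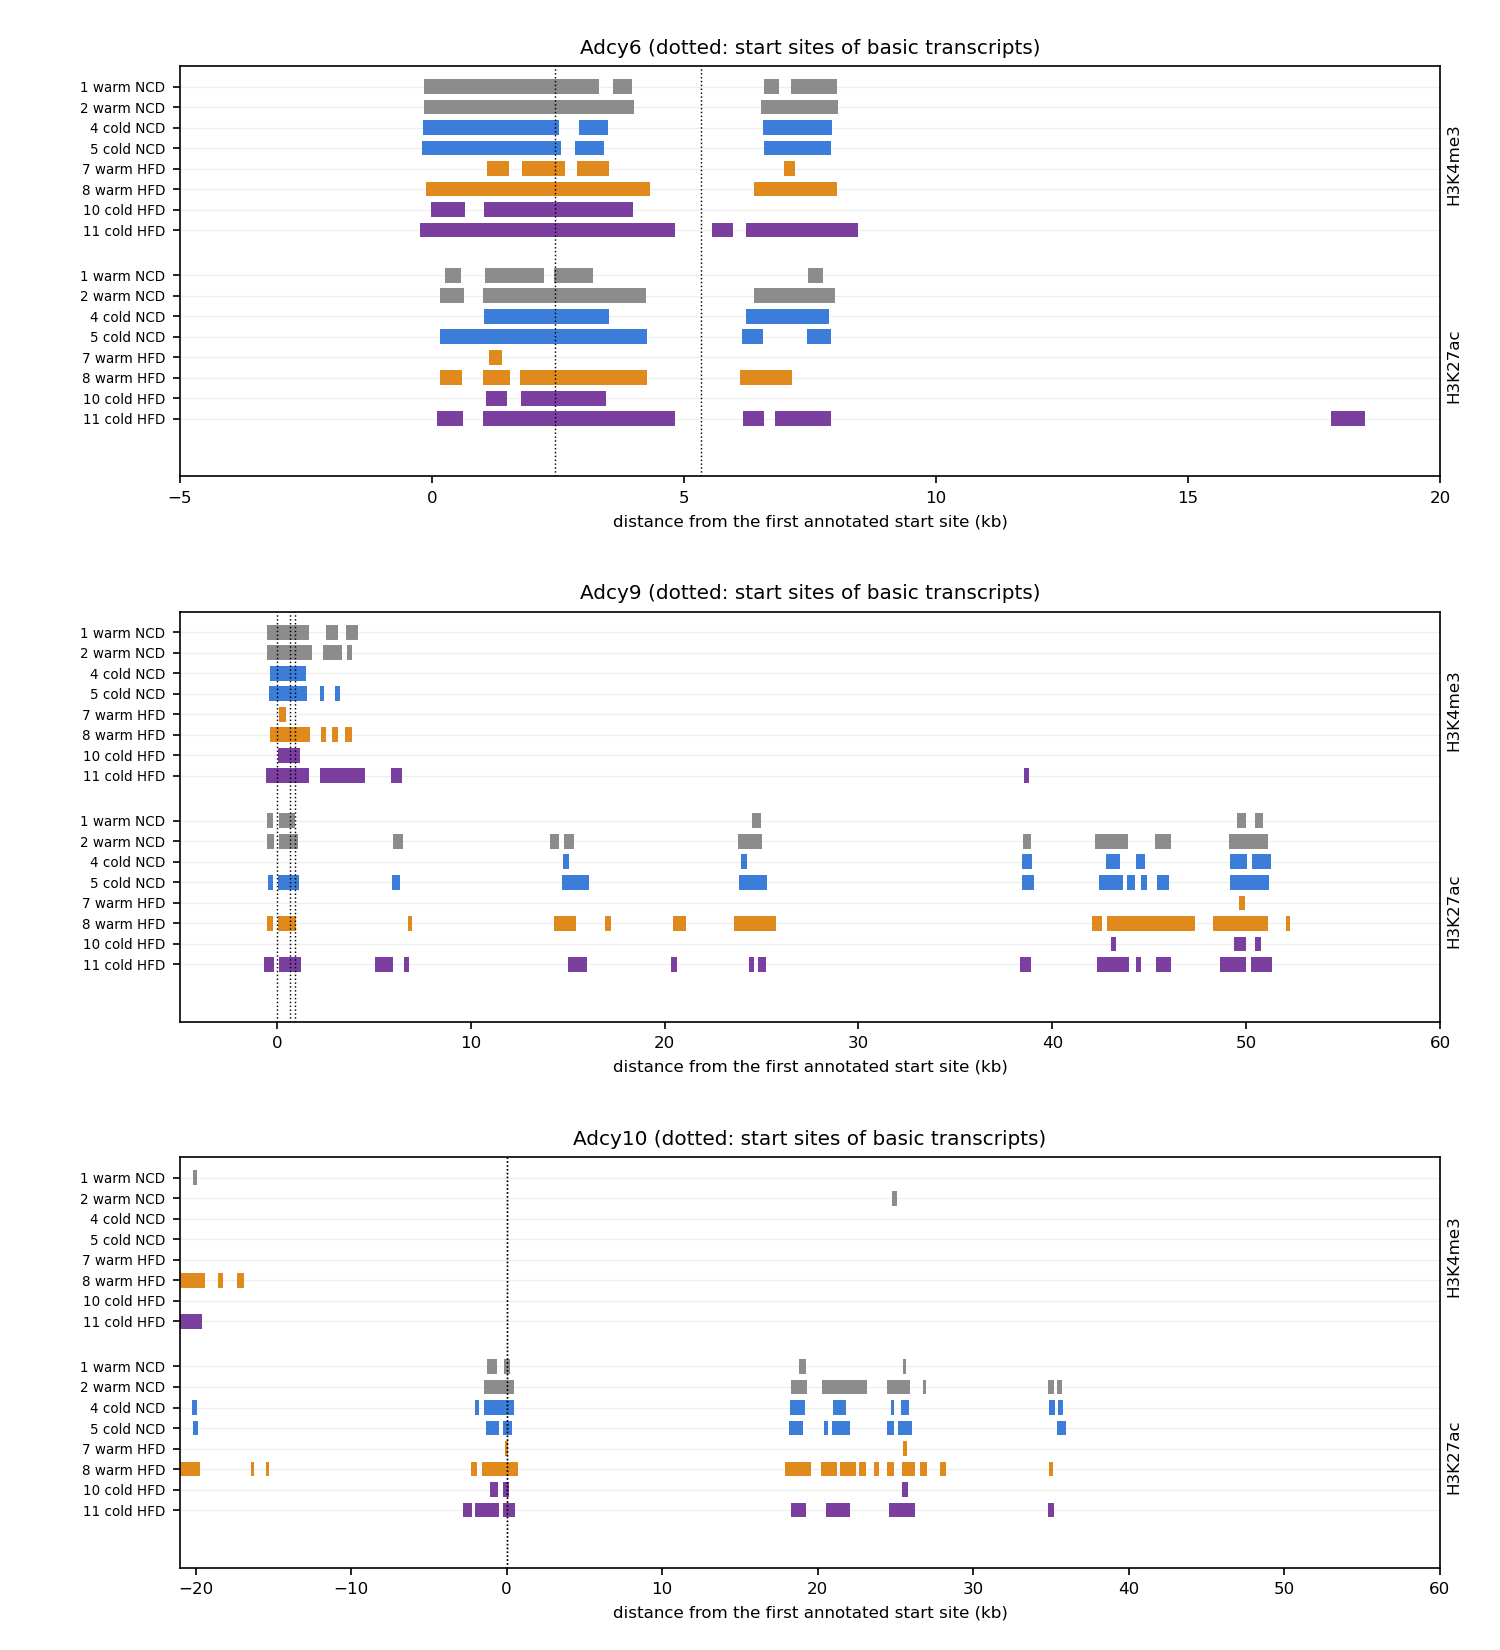
Peaks of H3K4me3 (upper 8 rows of each panel) and H3K27ac (lower 8 rows) in each mouse at Adcy6, Adcy9 and Adcy10, against the distance in kb from the first annotated start site. Each bar is 1 peak, colours mark the 4 conditions, dotted lines mark start sites of basic transcripts, and Adcy9 is drawn without its far end. Adcy6 has H3K4me3 on both sides of its second dotted line, Adcy9 has H3K27ac far into the gene, and Adcy10 has H3K27ac but no H3K4me3 at its start.

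The sequences at these starts differed in their content of CpG dinucleotides, which H3K4me3 is known to follow at many promoters. In the RefSeq promoter table (250 bases before to 50 bases after a start, GRCm38.p6), 8 members were matched by symbol, with 11 entries. The Adcy9 promoter at chr16:4420449-4420748 (minus strand) held 42 CpGs, against a median of 7 over 32851 promoters. The Adcy10 promoter at chr1:165484933-165485232 (plus strand) held 5. Both are shown because the first had H3K4me3 over it in 7 mice and the second in none, while H3K27ac lay over them in 5 and 8 mice. CpGs are in capitals.
Adcy9 promoter: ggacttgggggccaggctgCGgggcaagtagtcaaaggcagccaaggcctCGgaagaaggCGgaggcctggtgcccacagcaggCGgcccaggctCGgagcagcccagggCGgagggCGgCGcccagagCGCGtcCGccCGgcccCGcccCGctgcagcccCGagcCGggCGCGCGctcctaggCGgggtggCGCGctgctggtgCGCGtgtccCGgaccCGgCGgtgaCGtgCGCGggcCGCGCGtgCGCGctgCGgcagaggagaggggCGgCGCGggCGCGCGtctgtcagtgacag
Adcy10 promoter: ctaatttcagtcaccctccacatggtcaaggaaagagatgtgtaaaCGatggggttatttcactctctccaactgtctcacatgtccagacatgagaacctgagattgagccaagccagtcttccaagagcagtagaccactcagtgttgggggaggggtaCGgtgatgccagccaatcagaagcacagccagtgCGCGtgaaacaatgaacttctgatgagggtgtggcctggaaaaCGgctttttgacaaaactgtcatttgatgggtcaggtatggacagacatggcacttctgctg

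Among the entries matched, CpG content did not order the members by H3K4me3. Adcy6 and Adcy8 had no entry. The promoters of Adcy1, Adcy2 and Adcy5 held 37, 32 and 44 CpGs, and H3K4me3 overlapped them in 0, 0 and 5 mice. The second Adcy3 entry held only 7 and had H3K4me3 over it in 8 mice, in the same H3K4me3 region as the first Adcy3 entry. The Adcy4 entry with 16 had H3K4me3 over it in 7 mice. The 3 Adcy7 entries held 6, 5 and 4 and had no H3K4me3 over them. None of these lay at the start of Adcy7-203, which H3K4me3 covered in 6 mice. The full cAMP response element TGACGTCA, searched on both strands, was in none of the member entries and in 1.79% of all promoters. Its half-site TGACG was in the Adcy9 promoter and in 1 of the Adcy7 entries, and in 20.8% of all promoters.

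Adcy4, Adcy7, Adcy5, Adcy8, Adcy2 and Adcy1 had the weaker or incomplete patterns. Adcy4 (chr14:55769057-55784095, minus strand) had H3K4me3 at its start with folds of 12.5, 10.5, 17.1 and 27.9 in NCD mice and 3.46, 7.51 and 15.1 in mice 8, 10 and 11, and none in mouse 7. H3K27ac at the same start was called in 4 of 4 cold mice and in 2 of 4 warm mice. Over Adcy4 and the 20 kb upstream, the bases covered by H3K27ac were 0 and 719 in the warm NCD mice, 2644 and 1039 in the cold NCD mice, 0 and 986 in the warm HFD mice, and 848 and 2498 in the cold HFD mice. Cold mice averaged 1757 ± 945 and warm mice 426 ± 504 (SD, n = 4 and 4), and the groups overlapped at 848 and 986 (exact permutation p = 0.0571). Without mouse 10 they did not overlap and Adcy4 was called higher in cold mice, before adjustment over all genes. Adcy4 was not called after scaling by the list totals. Warm mice 1 and 7, with 0 bases, had 16889 and 3224 H3K27ac peaks in all, and cold mouse 10, with 848 bases, had 14511. The part of list length in this difference was not tested. A separate H3K4me3 region 3846 to 4976 bp upstream lay at the start of Ripk3, a kinase gene of the necroptosis pathway.

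Adcy7 (chr8:88272403-88329962, plus strand) has 4 basic start sites, and H3K4me3 covered the most upstream of them, that of Adcy7-203, in 6 mice. Its folds were 4.02, 6.65, 3.87 and 22.1 in NCD mice and 5.09 and 6.87 in mice 8 and 11. The start bases of Adcy7-202, Adcy7-204 and Adcy7-201, at 10589, 16744 and 21832 bp, lay under no H3K4me3 peak in any mouse. The recurrent H3K27ac of this gene was elsewhere, at 9872 to 10378 bp, which ends 211 bp before the start of Adcy7-202, and was called in mice 2, 4, 8, 10 and 11. Both active marks were thus recurrent at Adcy7 but at different start sites.

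Adcy5 and Adcy8 carried H3K4me3 without H3K27ac at the start. At Adcy5 (chr16:35154877-35305738, plus strand) the H3K4me3 folds were 7.53, 6.38, 3.67 and 11.7 in NCD mice and 4.68 and 6.53 in mice 8 and 11. The only H3K27ac of Adcy5 that recurred in at least 4 mice was intronic, at 51221 to 52496 bp, in 6 mice. At Adcy8 (chr15:64697084-64922296, minus strand) the H3K4me3 folds were 11.7, 9.47, 9.46 and 26 in NCD mice and 3.78, 6.9 and 13.7 in mice 8, 10 and 11. No H3K27ac or H3K4me1 peak lay anywhere in the gene body of Adcy8 or the 20 kb upstream in any mouse. In mouse 5, H3K27me3 was called 438 to 891 bp upstream of the Adcy5 start with a fold of 5.24, and 1190 to 2078 bp downstream of the Adcy8 start with a fold of 5.92. The other mice had no H3K27me3 at either gene, and 6 of those 7 lists held 309 peaks or fewer, so that most of the lists could hardly have shown it. Adcy2 (chr13:68620043-68999541, minus strand) had weak H3K4me3 317 to 1129 bp into the gene, with folds of 4.02, 5.13, 4.2 and 6.03 in NCD mice and 3.51 in mouse 8. The antisense gene Gm35161 starts in the same stretch, and Gm48593 starts within 1000 bp of that stretch. No H3K4me3 peak covered the start base of Adcy2 itself in any mouse. The lists do not tell which of the genes the mark belongs to. Adcy1 (chr11:7063489-7178506, plus strand) had a single H3K4me3 peak, in mouse 5, with a fold of 3.88. Neither Adcy1 nor Adcy2 had any H3K27ac, H3K4me1 or H3K27me3.

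Adcy3 lies at chr12:4133103-4213525 on the plus strand and has 4 basic start sites within 1050 bp of each other. H3K4me3 was called there in 8 of 8 mice. The highest folds were 21.7 and 19.5 in the warm NCD mice, 8.18 and 50.8 in the cold NCD mice, 4.4 and 13.1 in the warm HFD mice, and 8.18 and 29.9 in the cold HFD mice. The temperature groups overlapped, and so did the diet groups. After quantile normalisation the cold minus warm difference was -0.12 ± 0.35 and the HFD minus NCD difference 0.64 ± 0.35 (log2, SE, n = 4 and 4), and neither passed (limma, adjusted p = 0.972 and 0.864). H3K27ac at the annotated starts was called in mice 1, 2, 5, 8 and 11.

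A recurrent intragenic H3K4me3 region was found in Adcy3 with a peak in all 4 HFD mice and in none of the 4 NCD mice. It spans chr12:4159537-4162977, which is 26434 to 29874 bp from the first start site, in intron 2 of Adcy3-202 and intron 1 of Adcy3-201. In mice 7, 8, 10 and 11 the peaks had folds of 6.78, 9.13, 9.63 and 11.4 and −log10 q values of 7.21, 31.6, 13 and 40.7. Among all H3K4me3 peaks of the same mouse these folds stood at percentiles 71.8, 49.2, 60.5 and 49.3, near or above the middle of each list. In mice 7 and 10 the internal fold was higher than that at the annotated start by 0.62 and 0.24 on the log2 scale, and in mice 8 and 11 the log2 ratio was -0.52 and -1.39. The 5th percentile of fold in the lists of the NCD mice was 4.43, 4.14, 3.79 and 4.73, which is not a limit of detection at this site. Raw folds are not on a common scale between the diets, as they differed by a median of 2.79-fold over shared regions. No H3K4me3 peak of any size was listed in the region in an NCD mouse, and the part of detection in this was not tested.

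**Figure D3:**
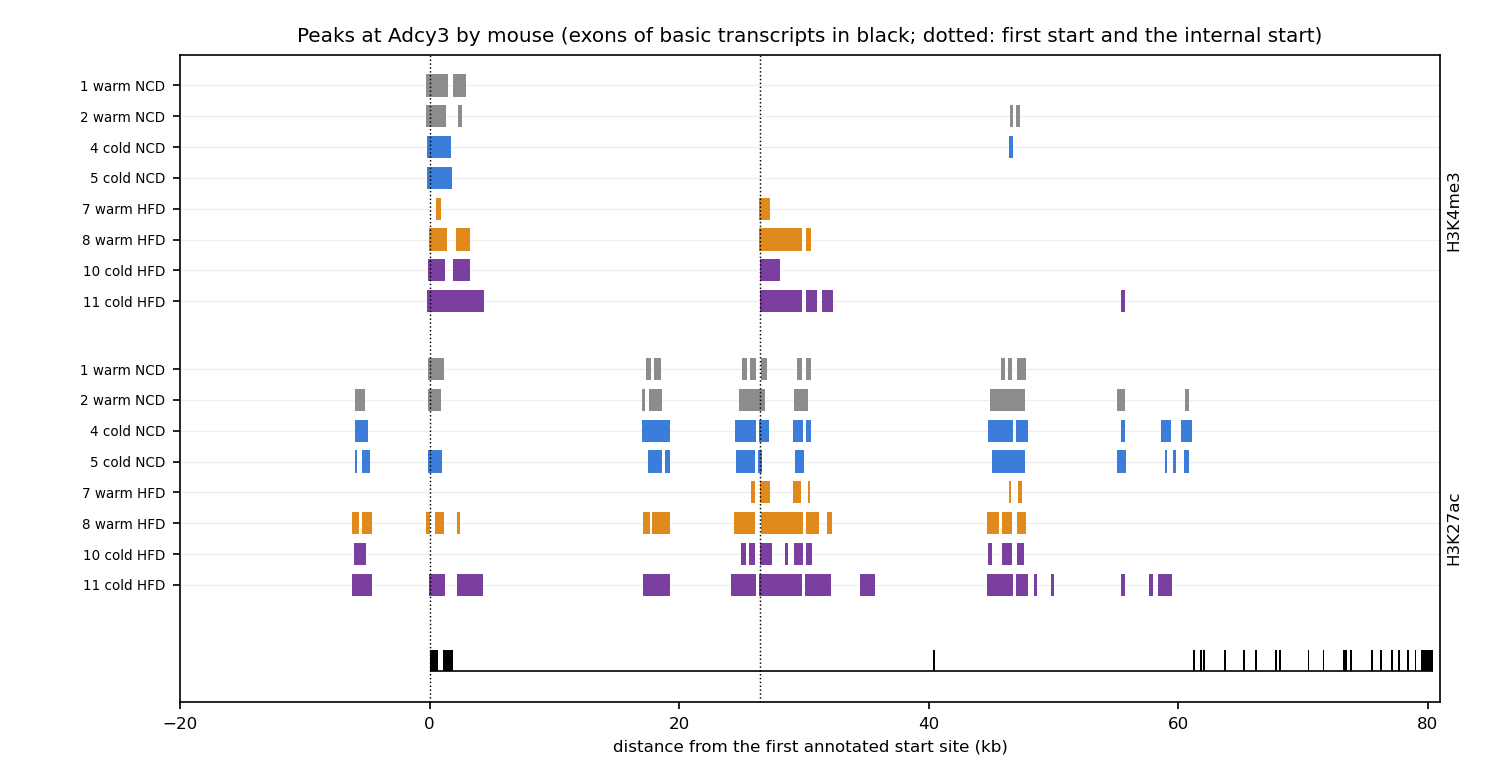
Peaks of H3K4me3 (upper 8 rows) and H3K27ac (lower 8 rows) at Adcy3 in each mouse, against the distance in kb from the first annotated start site, with the exons of basic transcripts in black. Dotted lines mark the first start and the start of Adcy3-205. H3K4me3 at the second line is present in the 4 HFD mice only, whereas H3K27ac lies near it in all 8.

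The H3K4me3 region coincides with a start site that the basic annotation leaves out. Adcy3-205, a processed transcript of 3 exons in the comprehensive GENCODE M21 set, starts at 26497 bp, and its second exon overlaps exon 3 of Adcy3-202. The H3K4me3 summits lay at 27103, 27133, 27125 and 26659 bp in mice 7, 8, 10 and 11, downstream of that start. Of the 1144 codons of Adcy3-202, 225 lie upstream of the region and the others downstream. The region was therefore intragenic under the basic set and at an annotated start under the comprehensive set. An annotated start and the internal start are shown for their positions, with CpGs again in capitals. The more upstream of the RefSeq promoters of Adcy3, at chr12:4133147-4133446 (plus strand), held 33, the other, at chr12:4133903-4134202, held 7 with H3K4me3 over it in 8 mice, and the 250 bases before to 50 after the start of Adcy3-205, read from GRCm38.p6 at chr12:4159350-4159649 (plus strand), held 4.
Adcy3 annotated start: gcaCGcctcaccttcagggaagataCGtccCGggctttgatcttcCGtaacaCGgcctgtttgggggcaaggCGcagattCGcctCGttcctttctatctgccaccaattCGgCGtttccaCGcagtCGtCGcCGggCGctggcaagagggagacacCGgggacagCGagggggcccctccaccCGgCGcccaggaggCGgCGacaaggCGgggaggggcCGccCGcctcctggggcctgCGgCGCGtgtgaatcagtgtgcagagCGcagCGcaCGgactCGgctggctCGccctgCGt
Adcy3 internal start: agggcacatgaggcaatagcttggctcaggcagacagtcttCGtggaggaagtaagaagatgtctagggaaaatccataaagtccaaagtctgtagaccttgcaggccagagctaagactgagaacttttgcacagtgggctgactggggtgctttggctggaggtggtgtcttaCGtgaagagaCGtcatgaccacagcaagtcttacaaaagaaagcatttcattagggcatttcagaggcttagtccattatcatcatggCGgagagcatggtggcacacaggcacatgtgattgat

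The internal sequence had fewer CpGs than the median promoter, and 38% of all promoters had no more than its 4. Over the whole internal H3K4me3 region there were 11 CpGs per kb, against 35.5 per kb in the region at the annotated starts. The letters TGACG occurred once in the internal sequence, on the minus strand, and the full element TGACGTCA did not occur there.

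The 4 mice with the internal peak were 2 warm and 2 cold, and so were the 4 without it, as a peak in the HFD mice only must be. The ratio of internal to annotated fold could not be tested by temperature, because no NCD mouse had an internal fold. In its place, the share of the H3K4me3-covered bases of both regions that lay in the internal one was 0% in mice 1, 2, 4 and 5 and 65.3%, 57.6%, 37.6% and 43% in mice 7, 8, 10 and 11. Cold mice averaged 20.2 ± 23.4% and warm mice 30.7 ± 35.6% (SD, n = 4 and 4), and HFD mice averaged 50.9 ± 12.8% and NCD mice 0%. These shares are a description without a test, because the region was picked and bounded by peaks of the HFD mice alone. Over all regions of the mark no region passed Fisher's exact test of presence by diet, the adjusted p of this site being 1. This test could not decide the question. With 4 against 4 mice its smallest p is 0.0286, which cannot pass the adjustment over 28739 regions unless most of them reach it.

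Few regions of the genome behaved this way in these lists. Of 28739 H3K4me3 regions, 4 had a peak in all HFD mice and no NCD mouse (0.0139%), 1 of them a member region, and the other 3, with folds from 1.35 to 4.05, lay on the mitochondrial chromosome or over a group of predicted genes on chromosome 1. Of the 1403 regions with a peak in exactly 4 mice, these were 0.285%. The opposite pattern, a peak in all NCD mice and no HFD mouse, was met by 172 regions (0.598%) and by no member region. The rarity of the HFD pattern changed with the mice included: there were 26 such regions without mouse 7, 6 without mouse 10, and 230 without both, where a peak in 2 HFD mice was enough. The part of list length in this was not tested. The share of H3K4me3 peaks over 1000 bp from any annotated start was 26.3 to 29.3% in NCD mice and 10.2, 20.8, 14.7 and 33.7% in mice 7, 8, 10 and 11, so that 3 of the 4 HFD lists held relatively fewer such peaks than the NCD lists and mouse 11 held more.

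H3K27ac was called at the internal region in all 8 mice. It covered 903 and 1090 bases of the region in the warm NCD mice, 1458 and 809 in the cold NCD mice, 1363 and 3340 in the warm HFD mice, and 1879 and 3441 in the cold HFD mice. The 3 highest values were all in HFD mice, and mouse 4 lay above mouse 7. HFD mice averaged 2506 ± 1044 and NCD mice 1065 ± 287 bases (SD, n = 4 and 4), a difference that did not pass (exact permutation p = 0.0571). H3K27ac did not define the site, but the region was picked and bounded by H3K4me3 peaks of the same HFD mice. The tests of H3K27ac by diet in it are therefore no independent support. Without mouse 7, whose H3K27ac list was the shortest, the exact permutation p by diet was 0.0286. Scaling by the total of each list gave the same exact permutation p of 0.0286. It put mouse 7 at 17396 bases, however, in a region of only 3441 bp, so the scaled value is not a possible coverage. With peaks of a −log10 q of 5 or more only, mice 1 and 5 had no H3K27ac in the region and the exact permutation p was 0.171, and without mouse 1, 2 or 5 it was 0.143. Cold and warm mice averaged 1897 ± 1120 and 1674 ± 1127 (exact permutation p = 0.657). The fold of the H3K27ac region around it, 24138 to 32293 bp from the first start, was higher in HFD than in NCD mice by 0.53 ± 0.27 (log2, SE) without passing (limma, adjusted p = 0.53). A second H3K27ac region shared by 8 mice, at 44679 to 47983 bp, leaned the other way, with folds of 11.7, 17, 18.2 and 18.7 in NCD mice and 6.98, 7.57, 9.13 and 11.5 in HFD mice. These raw groups did not overlap, but the difference after normalisation was -0.37 ± 0.25 (limma, adjusted p = 0.625). H3K4me1 was called inside the internal region in mice 2, 4 and 5, over 398, 553 and 1368 bases, and not in mouse 1 or any HFD mouse. Mice 1, 7 and 10 had only 592, 12 and 18 H3K4me1 peaks in all, and the part of list length was not tested. An H3K4me1 region just upstream, at 24612 to 26096 bp, was called in mice 2, 4, 5 and 8.

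**Figure D4:**
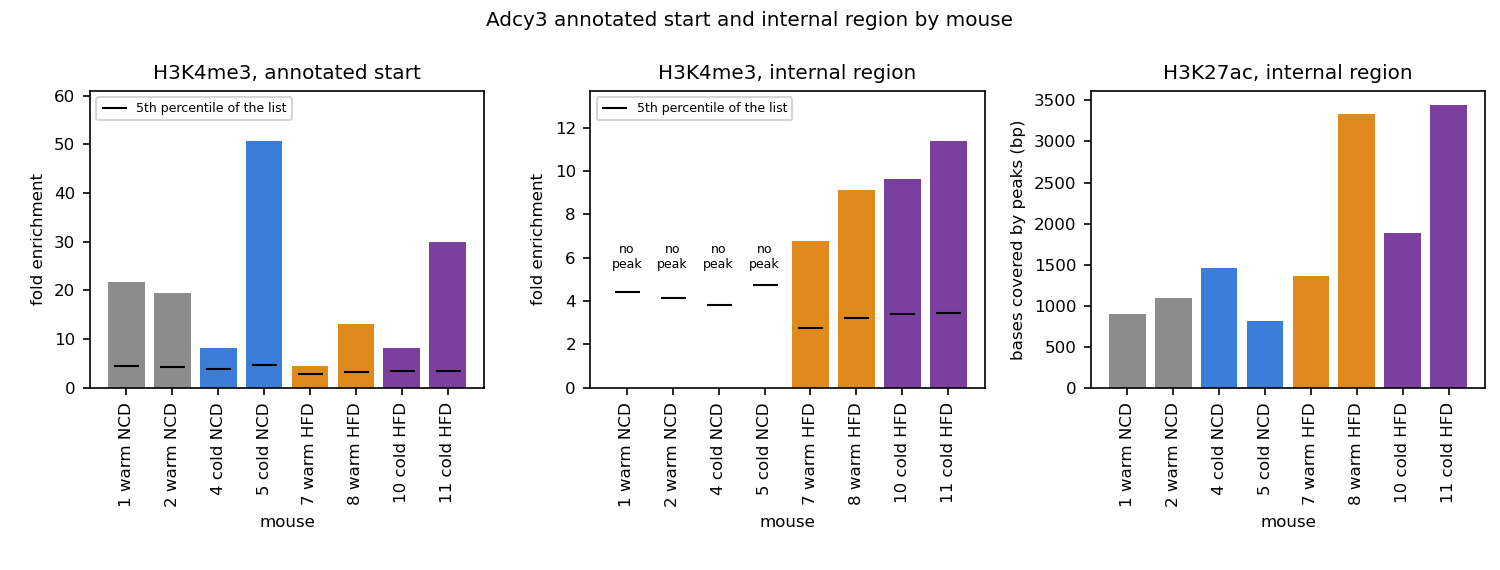
H3K4me3 fold enrichment at the annotated start (left) and at the internal region (middle) of Adcy3, and bases of the internal region covered by H3K27ac peaks (right), with 1 bar per mouse. Short black lines give the 5th percentile of fold of that mouse's H3K4me3 list. The internal folds of the 4 HFD mice were 6.78 to 11.4, and the lines are at 3.79 to 4.73 in the NCD mice. The lines are not a limit of detection at this site. Raw folds are not on a common scale between the diets.

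The other members had 1 further recurrent intragenic H3K4me3 region, in Adcy9 at 2205 to 4548 bp, which lay 1294 bp downstream of the nearest start. It was called in mice 1, 2, 5, 8 and 11 with folds of 5.69, 5.74, 4.74, 3.89 and 4.72, and was thus present in both diets and both temperatures. Beyond these, 8 of the 10 intragenic H3K4me3 regions of the family were not recurrent, and 6 of the 10 were called in a single mouse.

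The design asks what cold and diet changed, and apart from the Adcy3 site no member region was in all mice of 1 group and in none of the other. Between temperatures, 46 H3K4me3 regions (0.16%) and 155 H3K27ac regions (0.326%) of the genome were in all mice of 1 group and none of the other, and none of these was a member region. Between diets this was so for 42 H3K27ac regions (0.0883%) and 58 H3K4me1 regions (0.125%), again with 0 member regions. In the limma fit of regions called in all 8 mice, 0 of 9842 H3K4me3 regions passed for temperature (0%, 514 at an unadjusted p under 0.05) and 6 passed for diet (0.061%), none of them a member region. Among 2039 H3K27ac regions 0 passed for temperature (0%, 111 at an unadjusted p under 0.05) and 0 for diet (0%, 199 at an unadjusted p under 0.05). These fits held 4 H3K4me3 and 7 H3K27ac member regions, which belong to Adcy3, Adcy6, Adcy9 and Adcy10 and include the region of Mpc2 and Dcaf6, counted with Adcy10 because its edge reaches the window.

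Bases covered by peaks over the gene body and 20 kb upstream allowed all members to be compared, also where a mouse had no peak. For H3K4me3, 0 members reached the smallest exact permutation p of 0.0286 for temperature, beside 98 of 16068 genes with any peak (0.61%), and 0 did for diet, beside 517 genes (3.22%). For H3K27ac it was 0 members for temperature, beside 159 of 13668 genes (1.16%), and 0 for diet, beside 71 genes (0.519%). Adcy3 came to 2757, 2508, 2262 and 2045 H3K4me3-covered bases in NCD mice and 1338, 6340, 4316 and 9957 in HFD mice, and 3 of the 4 HFD mice were above all NCD mice. Its means were 5488 ± 3619 and 2393 ± 308 (SD, n = 4 and 4, exact permutation p = 0.143), and over the alternatives run p went from 0.0286, without mouse 7 or after scaling by the list totals, to 0.314, with peaks of a −log10 q of 5 or more. These sums include the internal site. Adcy8 averaged 1838 ± 552 H3K4me3-covered bases in cold and 922 ± 636 in warm mice (exact permutation p = 0.0857), and over the gene body alone, after scaling or without mouse 10 it reached 0.0286.

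**Figure D5:**
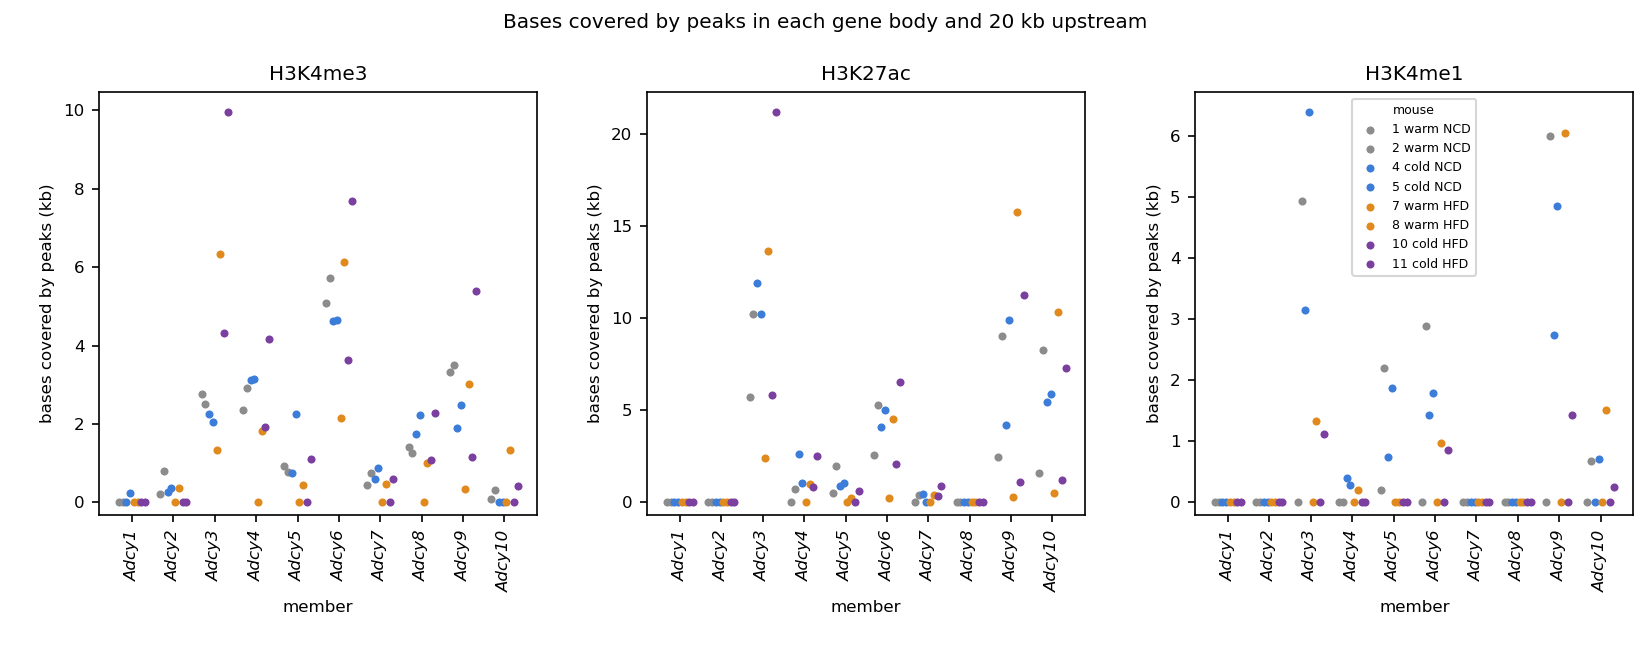
Bases covered by peaks of H3K4me3, H3K27ac and H3K4me1 (in kb) in the gene body and 20 kb upstream of each member, with 1 point per mouse coloured by condition. Adcy3 has its 3 highest H3K4me3 points in HFD mice, and Adcy1, Adcy2 and Adcy8 have no H3K27ac.

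The only member to reach the smallest exact permutation p was Adcy5 with H3K4me1, which was lower in HFD mice, and it did not pass over all genes (adjusted p = 0.738). With 4 against 4 mice this smallest p cannot pass the adjustment over 11293 genes unless most of them reach it. H3K4me1 covered 203, 2203, 739 and 1873 bases of Adcy5 in the NCD mice and 0 in all 4 HFD mice (exact permutation p = 0.0286), and 24 of 11293 genes (0.213%) were called in this direction. Mice 7 and 10 had almost no H3K4me1 peaks anywhere, so that only mice 8 and 11, with 17597 and 7774 peaks, could have shown it. In the same test, leaving out any 1 HFD mouse gave an exact permutation p of 0.0571, and keeping only peaks whose −log10 q was 5 or more gave 0.429. Adcy5 H3K27ac differed in the same direction, with 528, 1995, 891 and 1041 covered bases in NCD mice and 0, 225, 0 and 629 in HFD mice, and the groups overlapped (exact permutation p = 0.0571) except without mouse 1.

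Around the cyclases, the starts of cAMP pathway genes were counted in the same way. Of all protein-coding genes, 60.6% had H3K4me3 and 39.9% had H3K27ac at a start in at least 4 mice. Of the 10 receptors, 7 had H3K4me3 in at least 4 mice and 4 had H3K27ac, near these shares. The beta-adrenergic receptor genes Adrb1 and Adrb3 had H3K4me3 in 8 mice each and H3K27ac in 6 and 8. Gcgr, the glucagon receptor, had H3K4me3 in 1 mouse, Glp1r, the GLP-1 receptor, in 2, and Mc2r, the ACTH receptor, in none. All 5 G protein subunit genes had H3K4me3 in at least 4 mice and 4 had H3K27ac, Gnal, the olfactory stimulatory subunit, being without H3K27ac. Among the 6 PKA genes 5 had H3K4me3 and 4 had H3K27ac, and Prkar2b, the regulatory subunit prominent in adipose tissue, had both in 8 mice. All 10 phosphodiesterase genes, which degrade cAMP, had H3K4me3 in at least 4 mice and 9 had H3K27ac, and all 5 effectors and factors had both.

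Of these 36 pathway genes, 0 reached the smallest exact permutation p, before adjustment, for H3K4me3-covered bases by temperature and 3 did by diet. Ppargc1a, the coactivator of mitochondrial biogenesis, was higher in HFD mice, at 4122, 6916, 4586 and 9153 bases against 4039, 4015, 2161 and 2688 in NCD mice, and the groups did not overlap. Gcgr and Pth1r, the parathyroid hormone receptor, were lower in HFD mice, the Gcgr window holding 338, 261, 393 and 977 bases in NCD mice and 0, 0, 0 and 231 in HFD mice. For H3K27ac, 1 gene was called by temperature, the adenosine receptor Adora2a, with 9744, 1917, 5897 and 10571 bases in cold mice against 981, 1330, 0 and 1531 in warm mice, and 0 by diet. Shares of all genes called were 3.22% for H3K4me3 by diet and 1.16% for H3K27ac by temperature, as given above.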

How the data were processed

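Peak lists of 32 ChIP-seq libraries were analysed, and the 8 inputs entered only through them. According to the methods of the study and the processing notes of the submitters, adapters were removed with cutadapt, Bowtie2 placed the reads on GRCm38, and MACS2 called peaks in each library against its input. Versions were not given in the sources used here. Each list holds, as deposited, the fold enrichment of a peak, a ratio of ChIP signal to background computed by the authors with the peak caller, and −log10 p and −log10 q values deposited beside it, of which only q was used, as a filter. The smallest −log10 q was 1.3. Lists give no read counts, so the sequencing depth of a library is unknown and no counting interval was formed. The labels name the tissue iBAT, the design text calls it inguinal and the study interscapular. The mouse number of the labels was the replicate, although the methods can be read as tissue pooled from a pair of mice.

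Coordinates are 1-based on GRCm38, and no peak ran past the end of the 21 chromosomes compared. Genes and start sites came from GENCODE M21, the basic set being the main one. This set, the Adcy3 internal site and the tests on it were chosen after values were seen, and the members, lists and tests were chosen with earlier results of these data known. Named were all 10 members, the genes starting nearest to their regions, and the pathway and marker lists. Peaks of the 8 mice overlapping by at least 1 bp were joined into regions for each mark. Presence was tested by Fisher's exact test and covered bases by exact permutation of the mice (70 ways, two-sided), on all protein-coding genes. The log2 of the highest fold in regions called in all 8 mice was quantile-normalised and fitted with limma 3.58.1 (R 4.3.3) on temperature and diet, with Benjamini-Hochberg adjustment at 0.05. H3K4me1 and H3K27me3 had too few such regions. An intragenic H3K4me3 region lay over 1000 bp from every start of its gene and was recurrent when called in at least 4 mice. The permutation test, the joining of peaks into regions, the count of covered bases and the limma fit for temperature were tested on simulated data. Alternatives were a −log10 q of at least 5, windows of 500 bp, summits, other joining, scaling and normalisation, and leaving out mice. The comprehensive annotation and the omission of mice 7 and 10 together were chosen after seeing the data. P-values take each mouse number as the unit and set a difference against the variation between these mice. Only some genes of the pathway list are given by name.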

Additional observations from a re-analysis of the deposited data

Results flagged for a closer look

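In groups of 4 mice in which every mouse had a peak, 37 sets of covered bases were examined for a mouse standing apart from the other 3, and 2 were found. Chance alone marks about 1 in 20 such groups. Adcy9 H3K4me3 covered 343 bases in mouse 7, far below the other warm mice, and mouse 7 also had the shortest H3K4me3 list. Adcy5 H3K4me3 covered 2256 bases in mouse 5, far above the other NCD mice, and the median fold of its H3K4me3 list, 28.6, was the highest of the 8. The part of list length or fold in these values was not tested. For the 7 sets of covered bases with a peak in every mouse, cold and warm mice did not separate in opposite directions in the NCD and HFD groups.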

How the results depend on the processing

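No paired analysis was possible because the mouse numbers link the marks of 1 mouse and no number is shared between conditions. Members with a peak at a start in at least 4 mice stood at 8 for H3K4me3 and 6 for H3K27ac under each alternative run except with −log10 q of at least 5, where they were 7 and 5. Without mice 7 and 10 together, chosen after seeing the data, the Adcy3 differences by diet were 5756 bases for H3K4me3 and 7918 for H3K27ac, both with the smallest exact permutation p that 4 against 2 mice allow (0.0667), and Adcy5 H3K4me1 stood at an exact permutation p of 0.133. The Adcy3 internal H3K4me3 region kept its HFD-only pattern with −log10 q of at least 5, with peaks extended by 500 bp and without each mouse. Leaving out 1 mouse could not change the pattern, because the region was picked for a peak in all HFD mice and no NCD mouse. The −log10 q filter could only remove peaks, and those of the HFD mice stood at 7.21 or more. Member regions in 1 diet only rose to 2 for H3K4me3 with 1 exception allowed (Adcy2, in NCD mice) and without mice 7 and 10, and ranged from 1 to 2 over single mice left out. Such H3K27ac regions came to 2 for diet and 1 for temperature with 1 exception allowed, to 4 and 1 without mice 7 and 10, and to 0 to 2 and 0 to 1 over single mice left out. For H3K27ac, and for H3K4me3 in NCD mice only, the shares of all regions under these looser rules are not given here. Those member counts therefore cannot be set against a background and are no result about the members. HFD-only H3K4me3 regions of the genome came to 30 with 1 exception allowed, 230 without mice 7 and 10, and 4 to 26 over single mice left out. Covered bases were sensitive to scaling. Scaled by the list total, 744 and 1907 genes were called for H3K4me3 by temperature and diet (1 member each, Adcy8 and Adcy3), 488 and 520 for H3K27ac (0 and 2 members, Adcy3 and Adcy5 by diet) and 130 for H3K4me1 by diet. Over the gene body alone, 156 genes and 1 member (Adcy8) were called for H3K4me3 by temperature. With −log10 q of at least 5, 73 genes were called for H3K27ac by temperature, and 11 genes and 0 members for H3K4me1 by diet. Over single mice left out, genes called ranged from 57 to 650 and from 131 to 3974 for H3K4me3 by temperature and diet, from 40 to 738 and from 30 to 360 for H3K27ac, and from 4 to 2187 for H3K4me1 by diet, with members at 0 to 1, 0 to 3, 0 to 1, 0 to 1 and 0 to 3. Without mouse 11, the called members for H3K4me3 by diet were Adcy4, Adcy5 and Adcy8, all lower in HFD mice, and the single members called for H3K27ac were Adcy4 by temperature without mouse 10 and Adcy5 by diet without mouse 1. H3K4me3 regions called by limma for diet fell from 6 to 0 with median centring, with regions of at least 6 mice and without each single mouse, and rose to 2458 without normalisation, 1 of them at Adcy6, where the median of all regions was -1.48. Several directions reversed, none of them past the threshold in either fit. Over single mice left out, the cold minus warm difference of Adcy3 H3K4me3 ran from -361 (without mouse 11) to 2444 bases. Adcy3 H3K27ac was -4527 by temperature after scaling and by diet ran from -2200 (without mouse 11) to 4057 over single mice left out. The Adcy3 start fold by diet was -0.91 without normalisation. H3K27ac in the internal region by temperature was -3697 after scaling, where mouse 7 came to 17396 bases, more than the region holds. The difference was -34.2 without mouse 1, and ran from -292 (without mouse 11) to 778. That of the internal H3K4me3 share by temperature ran from -20.8 to 0.962 percentage points (without mouse 7). The causes were not tested.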
